A study of Mus musculus with 12 samples.

Results

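The 10 genes described here are angiogenic factors that stromal cells can secrete: the vascular endothelial growth factor (VEGF) genes Vegfa, Vegfb, Vegfc and Vegfd, the angiopoietin genes Angpt2 and Angpt4, and the angiopoietin-like genes Angptl1, Angptl2, Angptl4 and Angptl7. They were chosen by name, by matching Ensembl identifiers to gene symbols, and are 10 of the 49585 genes counted. RNA was sequenced from 4 populations of bone and bone marrow cells of C57BL/6 wild-type male mice aged 8 to 10 weeks at steady state, with 3 libraries of 2000 cells for each population. Every population was negative for CD45, Ter119 and CD31, the surface markers of blood, red and endothelial cells. Itga8+ MSCs were Itga8+Alcam+Sca-1-, Itga8- BLCs (bone-lining cells, which the labels call osteoblasts) were Itga8-Alcam+Sca-1-, and Sca-1+ MSCs were Alcam-Sca-1+. These 3 populations came from bone fragments digested with collagenase after the marrow had been flushed out. CD51+CD140a+ MSCs came from the flushed marrow, digested with Accumax, so for this population the cell type cannot be told apart from the tissue and the enzyme. The labels do not say that the libraries of a population came from separate animals, and p-values measure the spread between these libraries.

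VEGF proteins act on endothelial cells through the receptor tyrosine kinases encoded by Flt1, Kdr and Flt4. VEGF-A is the main driver of blood vessel growth and permeability, while VEGF-C and VEGF-D act mainly on lymphatic endothelium. Angiopoietins bind the receptor Tek (Tie2). Angiopoietin-1 stabilises vessels, and angiopoietin-2 can oppose it and loosen them for remodelling. Angiopoietin-like proteins share the fold of angiopoietins but do not bind Tek, and some of them, such as Angptl4, regulate lipid metabolism instead. In bone marrow, sinusoids and arterioles lie beside perivascular stromal cells, and VEGF-A from the osteoblast and cartilage lineages is known to couple vessel growth to bone formation.

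The members lie on 7 chromosomes of the mouse genome (GRCm38, the build also called mm10) and all are protein-coding in GENCODE M21. Vegfa (ENSMUSG00000023951) spans chr17:46016993-46032369 on the minus strand with 13 annotated transcripts, and Angptl4 (ENSMUSG00000002289) spans chr17:33773750-33781830 on the minus strand. Vegfb (ENSMUSG00000024962) lies at chr19:6982473-6987651 on the minus strand, Vegfc (ENSMUSG00000031520) at chr8:54077606-54187096 on the plus strand and Vegfd (ENSMUSG00000031380) at chrX:164373378-164402650 on the plus strand. Angpt4 (ENSMUSG00000027460) lies at chr2:151911210-151945337 on the plus strand. The other 4 members lie inside the bounds of a protein-coding gene on the opposite strand: Angpt2 (ENSMUSG00000031465, chr8:18690263-18741562, minus) inside Mcph1, Angptl1 (ENSMUSG00000033544, chr1:156838562-156861078, plus) inside Ralgps2, Angptl2 (ENSMUSG00000004105, chr2:33216069-33247717, plus) inside Ralgps1, and Angptl7 (ENSMUSG00000028989, chr4:148495183-148500460, minus) inside Mtor. These 4 are 40% of the members, and 523 of 21734 protein-coding genes, 2.41%, lie so. No exon of the members overlaps an exon on the same strand, and only Angptl1 has exon bases (16.4% of them) opposite an exon of another gene, Gm37802. The use of strand in counting is not stated in the sources used here, so reads of Angptl1 and Gm37802 in that stretch may not have been told apart. Nor may reads from introns of the 4 surrounding genes have been told apart from reads of the members inside them.

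RefSeq promoter sequences (GRCm38.p6) were at hand for 8 of the 10 members, all but Angpt2 and Angptl4. The 250 bases before the start site are printed for 3 members that mark the main patterns described below: Vegfc and Angpt4, whose levels were highest in CD51+CD140a+ MSCs, and Angptl7, highest in Sca-1+ MSCs. Capitals mark the letters ACGTG or GCGTG (the core that hypoxia-inducible factors bind), GGGCGG (the GC box) and CCCNNGGG (the core of the early B cell factor motif), searched on both strands. In order, the stretches are chr8:54077282-54077531 (plus), chr2:151910957-151911206 (plus) and chr4:148500463-148500712 (minus), each read 5′ to 3′ along its gene.
Vegfc: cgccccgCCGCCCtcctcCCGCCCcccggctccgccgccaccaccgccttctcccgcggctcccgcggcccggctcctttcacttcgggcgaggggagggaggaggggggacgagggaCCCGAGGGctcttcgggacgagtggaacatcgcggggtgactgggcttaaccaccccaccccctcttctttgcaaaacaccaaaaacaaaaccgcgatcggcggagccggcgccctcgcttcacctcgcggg
Angpt4: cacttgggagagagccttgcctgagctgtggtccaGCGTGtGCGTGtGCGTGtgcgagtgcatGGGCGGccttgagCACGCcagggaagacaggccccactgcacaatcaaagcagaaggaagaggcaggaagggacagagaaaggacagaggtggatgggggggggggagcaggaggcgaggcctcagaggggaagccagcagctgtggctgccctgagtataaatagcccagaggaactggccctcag
Angptl7: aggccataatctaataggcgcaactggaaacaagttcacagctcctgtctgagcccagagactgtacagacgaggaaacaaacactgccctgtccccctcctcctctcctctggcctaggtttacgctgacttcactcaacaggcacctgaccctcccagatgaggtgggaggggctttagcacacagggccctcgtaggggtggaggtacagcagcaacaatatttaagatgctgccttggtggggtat
Vegfc had 2 GC boxes and 1 CCCNNGGG and no hypoxia core. Angpt4 had 4 hypoxia cores, 3 of them in a run of repeats, and 1 GC box. Angptl7 had none of these letters. The stretches differed in base composition too, with 71.6% G and C and a CpG ratio (observed over expected) of 0.958 at Vegfc, 62.4% and 0.315 at Angpt4, and 54.4% and 0.217 at Angptl7. Of 32851 mouse promoter windows of this length, 38.6% held a hypoxia core, 32.7% a GC box and 11.8% CCCNNGGG, and the median window had 52.4% G and C and a CpG ratio of 0.373. Among the other members in the table, Vegfa had 2 GC boxes and 1 CCCNNGGG that overlaps one of these boxes, Vegfb had 2 hypoxia cores and 4 GC boxes, Angptl2 had 2 GC boxes, and Vegfd and Angptl1 had none. For the last 2 the RefSeq start lies 144 and 461 bases downstream of the GENCODE start. The Angptl1 window therefore lies inside the gene bounds given above. A match is a string of letters and not a measured binding site.

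Library totals ran from 17580677 to 31332475 counts, and 3 counts, taken here as the floor, correspond to 0.0819 to 0.180 counts per 1000000 (CPM, adjusted between libraries by the TMM method). The largest libraries were those of CD51+CD140a+ MSCs. Itga8+ MSC replicate 2 stood apart, with correlations of log2(CPM + 1) down to 0.855 within its population, 0.546% mitochondrial counts against 0.359% in Itga8- BLC replicate 3 and 0.057% to 0.0996% in the other 10 libraries, and the highest summed levels of 9 myeloid and lymphoid markers (11835 CPM) and of 6 erythroid markers (1375 CPM, against at most 469 in the other libraries). The myeloid and lymphoid sum was 2305 CPM or more in every Itga8+ MSC and Itga8- BLC library, above the 883 to 1727 CPM of Sca-1+ and the 989 to 1698 CPM of CD51+CD140a+ libraries, with the T cell marker Cd3e at 0 in all 12. Its part in the results below was not tested. The 10 endothelial markers, including Cdh5 and Pecam1, summed to only 16.3 to 37.7 CPM in every library, and the ranges of the 4 populations overlapped. The summed level of 9 osteoblast markers, most of it Col1a1, was highest in Itga8- BLCs (36849 to 115117 CPM), although the means of Ibsp (10115 against 3461 CPM) and Runx2 (77.8 against 71.5 CPM) were higher in CD51+CD140a+ MSCs. The 6 markers of LepR+ stromal cells summed highest in CD51+CD140a+ MSCs (44709 to 61165, against at most 739 elsewhere), and the 5 adventitial fibroblast markers in Sca-1+ MSCs (2106 to 2592, against at most 107 elsewhere). These 5 include Ly6a, which encodes Sca-1, the protein this population was sorted for, so part of that contrast follows from the sort. Alcam RNA, whose product the first 2 populations were sorted for, was low in them (3.01 ± 1.89 and 4.91 ± 1.00 CPM, SD, n = 3) but lower still in Sca-1+ (0.139 ± 0.0714) and CD51+CD140a+ MSCs (0.0310 ± 0.0323). Itga8 RNA was 103 ± 85.6 CPM in Itga8+ MSCs, with an overlap with CD51+CD140a+ MSCs (64.3 ± 16.2), which were not sorted on it, and 1.74 ± 2.11 in Itga8- BLCs. Pdgfra, which encodes CD140a, was no lower in Sca-1+ (874 ± 142 CPM) than in CD51+CD140a+ MSCs (767 ± 93.4). The 9 pericyte and smooth muscle markers summed to overlapping levels (134 to 585 CPM), but Notch3 (112 ± 53.3 CPM) and Abcc9 (96.4 ± 14.1) were higher in CD51+CD140a+ MSCs than in the other populations, whose means were at most 2.0 and 9.15, and Cspg4 was lower there (4.50 ± 0.97 CPM, against means of 188 or more). The part of such cells in the results was not tested. In such bulk samples fewer cells of a type and less RNA per cell cannot be told apart.

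All 10 members reached 0.5 CPM in at least 1 library and were among the 18648 genes tested, although no library of Itga8+ MSCs or Itga8- BLCs did so for Vegfd. Levels differed among the 4 populations for 9 members in edgeR's quasi-likelihood F test at a false discovery rate (FDR) under 0.1, where 47.5% of all genes tested passed. The exception was Angptl2 (adjusted p = 0.116). Without Itga8+ MSC replicate 2 and Itga8- BLC replicate 3 together, 10 members passed, where 53.3% of all genes tested did. Vegfa, Vegfb, Vegfc, Angpt2, Angpt4 and Angptl4 had their highest mean in CD51+CD140a+ MSCs, Vegfd, Angptl1 and Angptl7 in Sca-1+ MSCs, and Angptl2 in Itga8+ MSCs. Below, a difference between 2 populations is called where edgeR gives an FDR under 0.1 over all genes tested together with a change of more than 2-fold. The exact permutation test of 3 libraries against 3 cannot give a two-sided p below 0.1, which it gave wherever the libraries did not overlap.

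**Figure D1:**
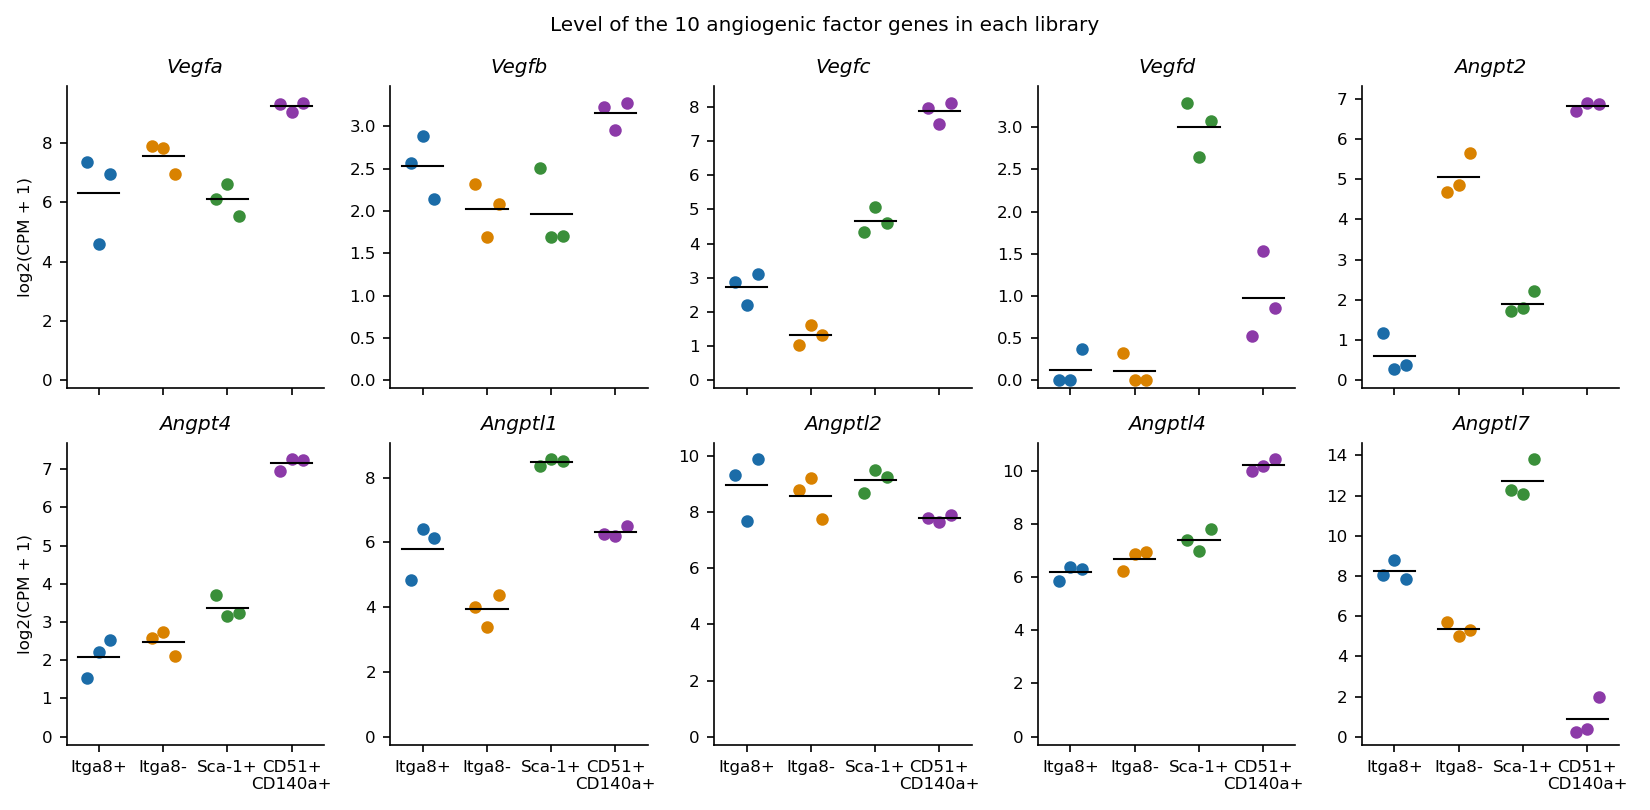
Level of each member as log2(CPM + 1) in the 12 libraries (1 panel per gene, 3 points per population, black lines the means of the 3 points). CD51+CD140a+ MSCs are highest for 6 members and Sca-1+ MSCs for Vegfd, Angptl1 and Angptl7, while for Angptl2 the 3 populations from bone overlap.

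Vegfa, the main growth factor for blood vessels, was highest in CD51+CD140a+ MSCs. Vegfa measured 640.4, 532 and 661 CPM in CD51+CD140a+ libraries, 239, 229 and 123 in Itga8- BLC libraries, 164, 23.3 and 124 in Itga8+ libraries and 69.0, 98.6 and 45.8 in Sca-1+ libraries. Every CD51+CD140a+ library lay above all 9 others, and Itga8+ MSC replicate 2 was the lowest of the 12. The mean of CD51+CD140a+ MSCs was 8.59-fold that of Sca-1+ MSCs (log2 fold change 3.10 ± 0.60 SE, edgeR adjusted p = 0.00297), 5.90-fold that of Itga8+ MSCs (2.56 ± 0.58, adjusted p = 0.00656) and 3.10-fold that of Itga8- BLCs (1.63 ± 0.56, adjusted p = 0.0461). The last of these calls was lost without Itga8- BLC replicate 3 (log2 fold change 1.39) or CD51+CD140a+ MSC replicate 3 (1.57). Itga8- BLCs were 2.77-fold above Sca-1+ MSCs (1.47 ± 0.56, adjusted p = 0.0822) with no overlap of libraries. This call was lost without Itga8- BLC replicate 1 or 2, or any 1 replicate of Sca-1+ MSCs or CD51+CD140a+ MSCs, with log2 fold changes of 1.23 to 1.78, and it was lost when libraries were scaled by their totals alone (1.28). Itga8+ MSCs did not pass against Itga8- BLCs (adjusted p = 0.590) or Sca-1+ MSCs (0.513), and their libraries overlapped those of both. Without Itga8+ MSC replicate 2 the difference from Sca-1+ MSCs was called, at a log2 fold change of 1.00.

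Vegfa spread widely within the populations from bone, 7.04-fold between the highest and lowest library of Itga8+ MSCs, 2.15-fold in Sca-1+ MSCs and 1.95-fold in Itga8- BLCs, against 1.24-fold in CD51+CD140a+ MSCs. The libraries with the lowest Vegfa of Itga8+ MSCs (replicate 2) and of Itga8- BLCs (replicate 3) also had the lowest summed level of 6 cartilage markers in their populations. That sum was 15338 CPM in the former, against 79249 and 124985 in the other Itga8+ MSC libraries, and 14572 CPM in the latter, against 45920 and 77772 in the other Itga8- BLC libraries. The 9 osteoblast markers were lowest in the same libraries, at 696 CPM against 6960 and 7978, and at 36849 against 84593 and 115117. These libraries also had the highest shares of mitochondrial counts of the 12. In Sca-1+ MSCs the cartilage sum was nearly even, at 9212 to 9838 CPM, and in CD51+CD140a+ MSCs, where Vegfa was highest, it was 561 to 1434 CPM. The part of these markers and of the mitochondrial share in the spread was not tested.

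Vegfc, the lymphatic growth factor, separated all 4 populations. Vegfc measured 252, 180.3 and 279 CPM in CD51+CD140a+ libraries, 19.1, 32.3 and 23.3 in Sca-1+ libraries, 6.28, 3.63 and 7.68 in Itga8+ libraries and 1.05, 2.08 and 1.498 in Itga8- BLC libraries. No 2 populations overlapped. From the top down, each step of this order was called: 9.52-fold from CD51+CD140a+ to Sca-1+ MSCs (log2 fold change 3.25 ± 0.38 SE, edgeR adjusted p = 9.13e-05), 4.25-fold to Itga8+ MSCs (2.09 ± 0.37, adjusted p = 0.00302) and 3.78-fold to Itga8- BLCs (1.92 ± 0.38, adjusted p = 0.0186). The last step was not called when only the libraries of Itga8+ MSCs and Itga8- BLCs were fitted, where the log2 fold change was 1.93. Between the ends of the order, CD51+CD140a+ MSCs were 153-fold above Itga8- BLCs (7.26 ± 0.47, adjusted p = 1.22e-06) and 40.4-fold above Itga8+ MSCs (5.34 ± 0.42, adjusted p = 4.95e-06). Sca-1+ MSCs were 16.1-fold above Itga8- BLCs (4.01 ± 0.41, adjusted p = 6.98e-05).

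Vegfb, a VEGF that binds Flt1 and is linked to lipid-using tissues, was low and the most even of the VEGF genes. Vegfb measured 8.41, 6.79 and 8.73 CPM in CD51+CD140a+ libraries, 4.95, 6.39 and 3.41 in Itga8+ libraries, 3.98, 2.22 and 3.24 in Itga8- BLC libraries and 4.70, 2.24 and 2.25 in Sca-1+ libraries. The libraries of the 3 populations from bone overlapped, and those of CD51+CD140a+ MSCs lay above all of them. The latter were 2.53-fold above Itga8- BLCs (log2 fold change 1.34 ± 0.42 SE, edgeR adjusted p = 0.0303) and 2.61-fold above Sca-1+ MSCs (1.38 ± 0.42, adjusted p = 0.0404), but not called against Itga8+ MSCs (0.70 ± 0.41, adjusted p = 0.213). The second of these calls depended on single libraries and was lost without Sca-1+ MSC replicate 2 (1.20) or 3 (1.20) or CD51+CD140a+ MSC replicate 1 (1.34) or 3 (1.31).

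Vegfd, the other lymphatic VEGF, was counted mainly in Sca-1+ MSCs. It had 159, 103 and 158 reads there (8.79, 5.24 and 7.40 CPM) and 16, 66 and 25 reads in CD51+CD140a+ MSCs (0.437, 1.89 and 0.805 CPM). Of the 6 libraries of Itga8+ MSCs and Itga8- BLCs, 4 had no read and Itga8+ MSC replicate 3 and Itga8- BLC replicate 1 had 5 each. The Sca-1+ libraries lay above all others, and those of CD51+CD140a+ MSCs above those of the remaining populations. Sca-1+ MSCs were called against Itga8+ MSCs (log2 fold change 6.21 ± 1.27 SE, edgeR adjusted p = 0.00712) and Itga8- BLCs (6.31 ± 1.28, adjusted p = 0.00507). The sizes of these differences rest on the 2 libraries with 5 reads, since the fitted log2 fold change was 10.43 without Itga8+ MSC replicate 3 and 10.42 without Itga8- BLC replicate 1. It was 5.62 against the 2 remaining Itga8+ libraries without replicate 1. The calls of CD51+CD140a+ MSCs over Itga8+ MSCs (3.44 ± 1.21, adjusted p = 0.0505) and Itga8- BLCs (3.54 ± 1.21, adjusted p = 0.0450), and of Sca-1+ over CD51+CD140a+ MSCs (2.77 ± 1.00, adjusted p = 0.0845), were less stable. The first was lost without Itga8+ MSC replicate 1 (2.85) or 2 (2.85) or CD51+CD140a+ MSC replicate 2 (2.69), and in a fit of the 2 populations alone, and its log2 fold change was 7.62 without Itga8+ MSC replicate 3. The second was lost without Itga8- BLC replicate 2 (2.94) or 3 (3.04) or CD51+CD140a+ MSC replicate 2 (2.79), and was 7.60 without Itga8- BLC replicate 1. The third was lost without any 1 Sca-1+ library (2.59 to 2.95) or CD51+CD140a+ MSC replicate 1 (2.40) or 3 (2.61), and was 3.52 without CD51+CD140a+ MSC replicate 2.

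To compare levels between genes, counts were divided by the exon length of each gene and scaled to an equal sum in each library (TPM). The VEGF ligands together came to 987 ± 178 TPM in CD51+CD140a+ MSCs, 150.1 ± 68.9 in Itga8- BLCs, 118 ± 29.2 in Sca-1+ MSCs and 108 ± 73.0 in the Itga8+ population (SD, n = 3), or 148 in the latter without replicate 2, which held 27.1 TPM. Their mix differed. In Itga8- BLCs 94.1% ± 2.29 of this sum was Vegfa and 1.40% ± 0.63 was Vegfc, while in CD51+CD140a+ MSCs Vegfa made up 58.5% ± 2.50 and Vegfc 39.3% ± 2.704. Sca-1+ MSCs were the population with a sizeable share of Vegfd, at 9.97% ± 3.90 beside 51.3% ± 7.38 Vegfa and 32.4% ± 6.54 Vegfc. In Itga8+ MSCs the Vegfa share ran from 49.8% in replicate 2 to 87.1%.

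**Figure D2:**
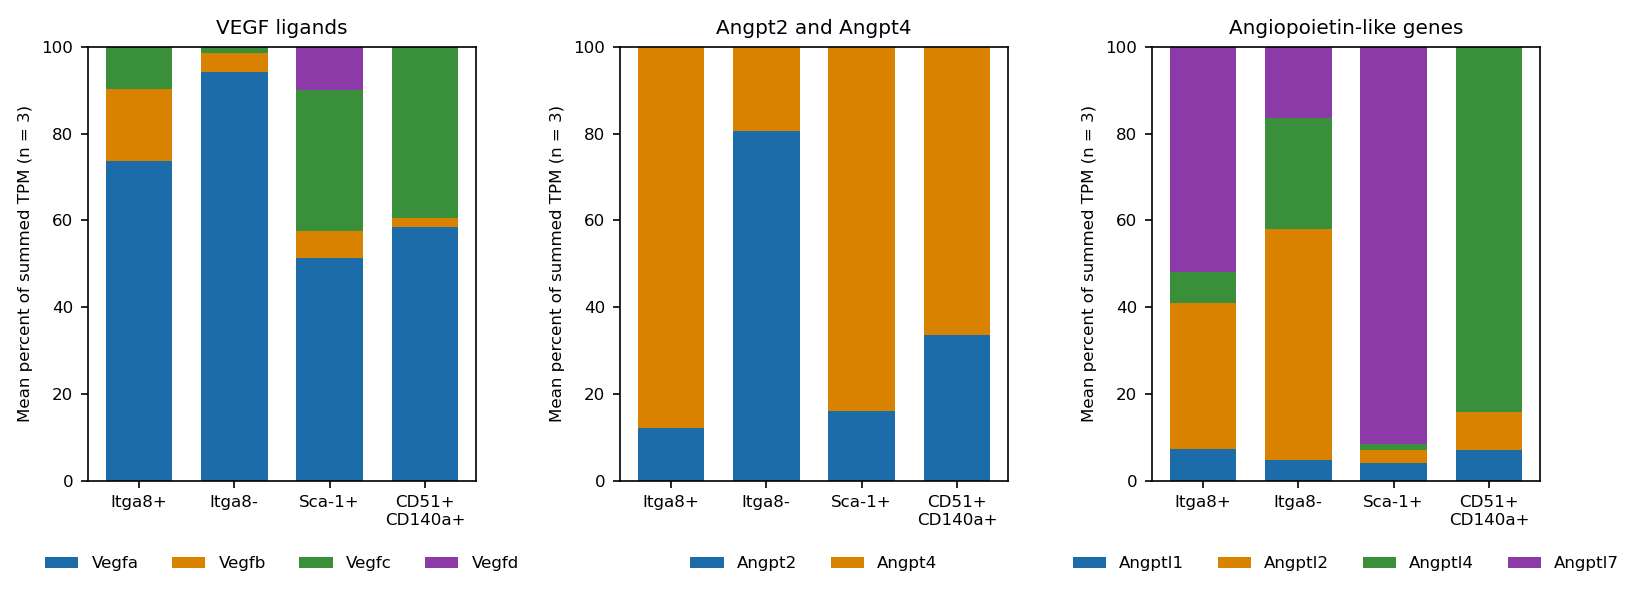
Mean percent of the summed TPM of each family taken by each member in the 4 populations (stacked bars, means of 3 libraries, TPM from exon length). Vegfa takes 94.1% of the VEGF ligands in Itga8- BLCs, Angpt2 80.6% of the angiopoietin pair there, Angptl7 91.6% of the angiopoietin-like genes in Sca-1+ MSCs and Angptl4 84.0% in CD51+CD140a+ MSCs.

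Angpt2, the vessel-loosening ligand of Tek, was the member that most clearly set Itga8- BLCs apart from Itga8+ MSCs. Angpt2 measured 103, 119 and 117 CPM in CD51+CD140a+ libraries, 24.5, 27.8 and 49.4 in Itga8- BLC libraries, 2.27, 2.44 and 3.61 in Sca-1+ libraries and 1.24, 0.208 and 0.289 in Itga8+ libraries. The 4 populations did not overlap, and the Itga8+ libraries held 25, 4 and 5 reads. Itga8- BLCs were 57.4-fold above Itga8+ MSCs (log2 fold change 5.84 ± 0.61 SE, edgeR adjusted p = 0.000482), and without Itga8+ MSC replicate 1 the log2 fold change was 7.07. It was 5.03 without Itga8+ MSC replicate 2 and Itga8- BLC replicate 3 together. Itga8- BLCs were also 12.2-fold above Sca-1+ MSCs (3.61 ± 0.54, adjusted p = 0.000789) and 3.33-fold below CD51+CD140a+ MSCs (1.74 ± 0.49, adjusted p = 0.0201). CD51+CD140a+ MSCs were 191-fold above Itga8+ MSCs (7.58 ± 0.66, adjusted p = 9.47e-06), or 8.80 on the log2 scale without Itga8+ MSC replicate 1, and 40.6-fold above Sca-1+ MSCs (5.34 ± 0.58, adjusted p = 5.35e-05). Sca-1+ MSCs passed Itga8+ MSCs by 2.24 ± 0.55 on the log2 scale (adjusted p = 0.0187), or 3.46 without Itga8+ MSC replicate 1, a call that was lost when the 2 populations were fitted alone (2.27).

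Angpt4, the other Tek ligand among the members, was also highest in CD51+CD140a+ MSCs. Angpt4 measured 122, 152 and 151 CPM in CD51+CD140a+ libraries, 12.2, 7.88 and 8.39 in Sca-1+ libraries, 4.98, 5.65 and 3.36 in Itga8- BLC libraries and 1.88, 3.69 and 4.74 in Itga8+ libraries. CD51+CD140a+ MSCs were 15.0-fold above Sca-1+ MSCs (log2 fold change 3.90 ± 0.39 SE, edgeR adjusted p = 2.89e-05), 30.3-fold above Itga8- BLCs (4.92 ± 0.41, adjusted p = 7.18e-06) and 41.3-fold above Itga8+ MSCs (5.37 ± 0.42, adjusted p = 4.31e-06). Sca-1+ MSCs were above Itga8+ MSCs (1.47 ± 0.36, adjusted p = 0.0183) and, near the fold limit, above Itga8- BLCs (1.02 ± 0.36, adjusted p = 0.0612). The latter call was lost without Itga8- BLC replicate 1 (1.12) or 3 (0.84) or Sca-1+ MSC replicate 1 (0.80) or 3 (1.10). Itga8+ MSCs and Itga8- BLCs overlapped (adjusted p = 0.737). By TPM Angpt4 exceeded Angpt2 in CD51+CD140a+ MSCs (243 ± 13.3 and 123 ± 1.67), whereas in Itga8- BLCs Angpt2 made up 80.6% ± 8.43 of the pair.

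Angptl4, an inhibitor of lipoprotein lipase that is known to be induced by fasting, fatty acids and low oxygen, was the highest member by TPM in CD51+CD140a+ MSCs and ranked 95 among all genes there (1338 ± 136 TPM). Angptl4 measured 1020.5, 1158 and 1373 CPM in CD51+CD140a+ libraries, 165, 124 and 225 in Sca-1+ libraries, 74.0, 117 and 122 in Itga8- BLC libraries and 57.1, 81.1 and 77.4 in Itga8+ libraries. Every CD51+CD140a+ library lay more than 4-fold above every other library. Against Sca-1+ MSCs the difference was 6.92-fold (log2 fold change 2.79 ± 0.32 SE, edgeR adjusted p = 7.78e-05), against Itga8- BLCs 11.4-fold (3.51 ± 0.33, adjusted p = 1.67e-05) and against Itga8+ MSCs 16.5-fold (4.04 ± 0.34, adjusted p = 7.45e-06). Sca-1+ MSCs were 2.38-fold above Itga8+ MSCs (1.25 ± 0.31, adjusted p = 0.0173) and 1.64-fold above Itga8- BLCs, with no overlap but past neither limit (0.71 ± 0.30, adjusted p = 0.113).

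Angptl7, a secreted protein known from the cornea, trabecular meshwork and fibrous tissues, had the widest range of the members. Angptl7 measured 4949, 4394 and 14298 CPM in Sca-1+ libraries, 262, 445 and 231 in Itga8+ libraries, 51.8, 31.5 and 38.4 in Itga8- BLC libraries and 0.164, 0.315 and 2.93 in CD51+CD140a+ libraries, the last from 6, 11 and 91 reads. The 4 populations did not overlap. In Sca-1+ MSCs it ranked 5 among all genes by mean TPM, with a spread of 3.25-fold between the highest library, replicate 3, and the lowest. Sca-1+ MSCs were 25.2-fold above Itga8+ MSCs (log2 fold change 4.65 ± 0.91 SE, edgeR adjusted p = 0.00541), 194-fold above Itga8- BLCs (7.60 ± 1.04, adjusted p = 0.000466) and above CD51+CD140a+ MSCs by 12.77 ± 1.27 (adjusted p = 2.81e-05). Without Sca-1+ MSC replicate 3 these log2 fold changes were 3.90, 6.85 and 12.01. Itga8+ MSCs exceeded CD51+CD140a+ MSCs by 8.11 ± 1.07 (adjusted p = 0.000183) and Itga8- BLCs did so by 5.17 ± 0.94 (adjusted p = 0.00163). Without CD51+CD140a+ MSC replicate 3, which held 91 reads, the differences from Sca-1+ MSCs, Itga8+ MSCs and Itga8- BLCs were 14.98, 10.32 and 7.38.

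Between Itga8+ MSCs and Itga8- BLCs Angptl7 differed 7.71-fold with no overlap of libraries, yet narrowly missed the FDR limit (2.95 ± 0.84, adjusted p = 0.105). It was called by DESeq2, by limma-trend, with library totals alone, without the filter on low genes, when the 2 populations were fitted alone, and when any 1 of the CD51+CD140a+ libraries was left out. The 6 tendon fibroblast markers, another fibrous cell type, summed highest in Itga8+ MSCs (12892 to 23543 CPM), above the 6264 to 9350 in Sca-1+ MSCs, where Angptl7 was highest. The part of these cells in the result was not tested.

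Angptl1, a secreted protein reported to restrain endothelial growth, shared with Angptl7 its peak in Sca-1+ MSCs but, unlike Angptl7, was well above the floor in CD51+CD140a+ MSCs. Angptl1 measured 331, 378 and 366 CPM in Sca-1+ libraries, 76.2, 72.0 and 89.7 in CD51+CD140a+ libraries, 27.5, 83.5 and 69.8 in Itga8+ libraries and 15.1, 9.54 and 19.8 in Itga8- BLC libraries. Sca-1+ MSCs lay above and Itga8- BLCs below all other libraries, and CD51+CD140a+ and Itga8+ MSCs overlapped (log2 fold change 0.40 ± 0.38 SE, edgeR adjusted p = 0.447). Sca-1+ MSCs were 4.52-fold above CD51+CD140a+ MSCs (2.18 ± 0.40, adjusted p = 0.00214), 5.95-fold above Itga8+ MSCs (2.57 ± 0.40, adjusted p = 0.00149) and 24.2-fold above Itga8- BLCs (4.60 ± 0.44, adjusted p = 5.69e-05). Itga8+ MSCs exceeded Itga8- BLCs 4.07-fold (2.02 ± 0.40, adjusted p = 0.0179), a call lost when only these 2 populations were fitted (2.00), and CD51+CD140a+ MSCs exceeded Itga8- BLCs 5.35-fold (2.42 ± 0.40, adjusted p = 0.000908).

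Angptl2, a secreted factor known from fat and inflamed tissue, was high everywhere and was the member least tied to a population. Angptl2 measured 632, 204 and 938 CPM in Itga8+ libraries, 403, 713 and 606 in Sca-1+ libraries, 440, 593 and 214 in Itga8- BLC libraries and 220.2, 198 and 237 in CD51+CD140a+ libraries. Each population from bone overlapped the other 2, and the lowest of their libraries were Itga8+ MSC replicate 2 and Itga8- BLC replicate 3, which had the highest mitochondrial shares. CD51+CD140a+ MSCs were 2.71-fold below Itga8+ MSCs (log2 fold change 1.44 ± 0.50 SE, edgeR adjusted p = 0.0487), a call in which Itga8+ MSC replicate 2 overlapped the lower group, and 2.63-fold below Sca-1+ MSCs (1.39 ± 0.50, adjusted p = 0.0810) without overlap. The first was lost without Itga8+ MSC replicate 3 (0.95) or any 1 CD51+CD140a+ library (1.37 to 1.5). The second was lost without replicate 1 of Itga8+ MSCs (1.40) or Itga8- BLCs (1.43), Sca-1+ MSC replicate 2 (1.21) or 3 (1.35), or any 1 CD51+CD140a+ library (1.33 to 1.46), and with library totals alone (1.25). Against Itga8- BLCs the difference was not called (0.93 ± 0.50, adjusted p = 0.174), but was without Itga8+ MSC replicate 2 and Itga8- BLC replicate 3 together (1.24). The angiopoietin-like genes came to 14462 ± 9292 TPM in Sca-1+ MSCs (9104 without replicate 3), 1592 ± 153 in CD51+CD140a+ MSCs, 937 ± 205 in the Itga8+ population and 364 ± 137 in Itga8- BLCs. Angptl7 made up 91.6% ± 4.01 of the Sca-1+ sum and Angptl4 84.0% ± 1.51 of the CD51+CD140a+ sum, while in Itga8- BLCs the leading member was Angptl2, at 53.2% ± 14.8.

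Counted over the members, the comparisons differed in number and direction. The 6 comparisons share libraries and are not independent, and over all genes tested the median log2 fold change lay between -0.0025 and 0.18 in them. Itga8+ MSCs exceeded Itga8- BLCs in 2 members (Vegfc and Angptl1) and lay below them in 1 (Angpt2), where 1.66% and 2.16% of all genes were called in these directions. Here 4 members did not overlap, against 14.2% of all genes, and the median log2 fold change of the members was 0.30. Against Sca-1+ MSCs 0 members were called higher in Itga8+ MSCs (12.9% of all genes were) and 7 were called lower (8.89%), with 7 that did not overlap (37.6%) and a median of -1.78. Against CD51+CD140a+ MSCs, Itga8+ MSCs were higher in 2 (21.2%) and lower in 6 (14.3%), 8 did not overlap (44.4%) and the median was -3.0. Itga8- BLCs were above Sca-1+ MSCs in 2 (14.5%) and below in 5 (11.9%), with 8 that did not overlap (45.7%) and a median of -0.87. Against CD51+CD140a+ MSCs, Itga8- BLCs were higher in 1 (20.4%) and lower in 8 (14.9%), 9 did not overlap (49.8%) and the median was -2.08. Sca-1+ MSCs were above CD51+CD140a+ MSCs in 4 (11.2%) and below in 6 (9.30%), all 10 did not overlap (45.9%) and the median was -2.09. Without Itga8+ MSC replicate 2 and Itga8- BLC replicate 3, the totals called were 3, 8, 8, 6, 10 and 10 in place of 3, 7, 8, 7, 9 and 10. Of all genes, 3.62%, 20.3%, 31.4%, 27.4%, 34.2% and 24.9% were called then, in place of 3.82%, 21.7%, 35.6%, 26.4%, 35.3% and 20.5%.

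**Figure D3:**
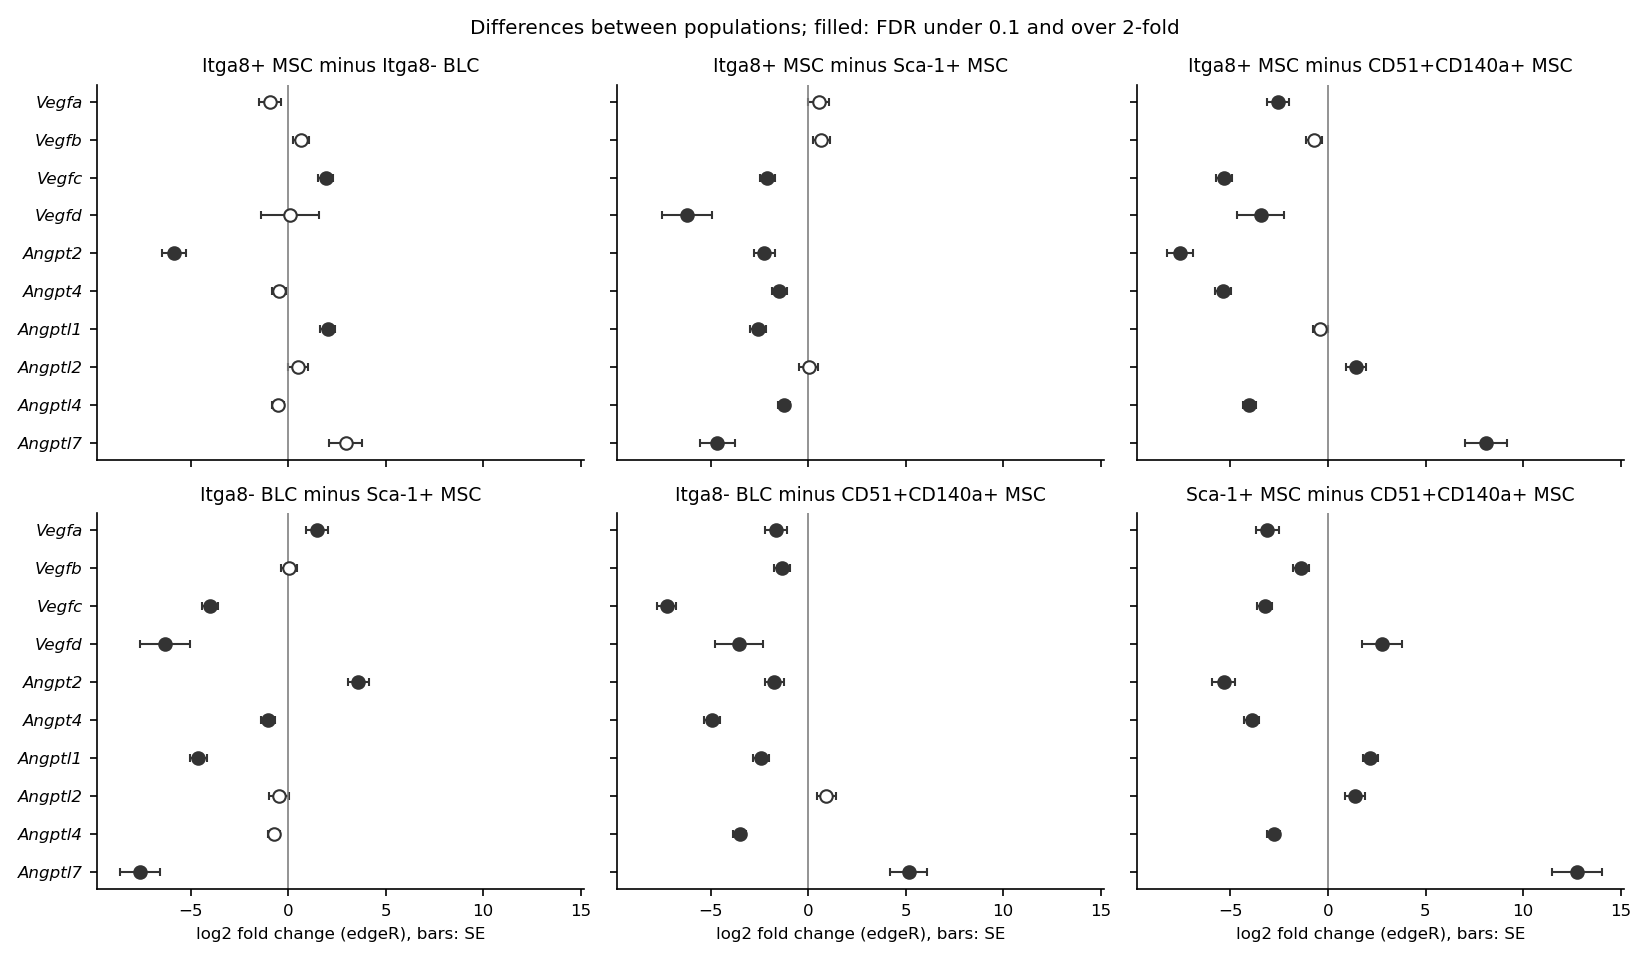
Log2 fold change of each member in the 6 comparisons (points, first population minus second, bars SE, edgeR fit of 12 libraries), filled where the FDR is under 0.1 and the change over 2-fold. Angptl7 reaches 12.77 in Sca-1+ minus CD51+CD140a+ MSCs, and 6 members are filled left of 0 in Itga8+ minus CD51+CD140a+ MSCs, Vegfd among them, as in Sca-1+ minus CD51+CD140a+ MSCs, where Vegfb takes the place of Vegfd.

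Other genes of these pathways were taken from lists fixed by name. Of the family genes that are not members, Pgf (placental growth factor) and Angpt1 followed the pattern of CD51+CD140a+ MSCs, at 169 ± 29.0 and 319 ± 23.04 CPM there against at most 18.3 ± 9.63 and 27.6 ± 1.24 elsewhere (SD, n = 3), and both were called in all 3 comparisons with that population. Of 8 receptor genes, 5 differed among the populations, where 47.5% of all genes did. Tek stood at 69.9 ± 20.4 CPM in Sca-1+ MSCs against at most 3.07 ± 0.80 elsewhere, and was 4.51 ± 0.96 higher there than in CD51+CD140a+ MSCs on the log2 scale (edgeR adjusted p = 0.00567). Nrp1, a coreceptor of VEGF-A, was 952 ± 168 CPM in CD51+CD140a+ MSCs and at most 117 ± 31.4 elsewhere. The mean of the related gene Nrp2 was highest in Itga8- BLCs, with a wide spread (329 ± 322 CPM), followed by CD51+CD140a+ MSCs (196 ± 46.0). The difference between these populations was not called. The endothelial receptor genes Kdr, Flt1 and Flt4 stayed at or below 6.11 ± 6.61 CPM. Of 11 genes for processing of VEGFs and for targets of angiopoietin-like proteins, 3 were called higher in CD51+CD140a+ MSCs than in each other population: Lpl, the lipase that Angptl4 inhibits (3673 ± 877 CPM against at most 70.3 ± 20.3), Ccbe1, which is needed to activate VEGF-C (41.2 ± 1.52 against at most 1.70 ± 0.49), and the protease gene Adamts1. In the same list, 4, 2 and 3 genes were called lower in CD51+CD140a+ MSCs than in Itga8+ MSCs, Itga8- BLCs and Sca-1+ MSCs. Of all genes tested, 21.2%, 20.4% and 11.2% were called lower there and 14.3%, 14.9% and 9.30% higher. Among the genes called lower was Fn1, the fibronectin gene, at 45.4 ± 20.6 CPM there, against 1864 ± 2143 in Itga8- BLCs, the lowest of the other means. Adamts3, the protease gene for VEGF-C, was also called lower in CD51+CD140a+ MSCs (4.85 ± 1.18 CPM) than in Itga8+ MSCs (26.1 ± 21.6).

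Vegfa and Angptl4 are known targets of hypoxia-inducible factors, so 23 other genes commonly induced by these factors were set beside them. In CD51+CD140a+ MSCs 12 of the 23 were called lower and 1 (Mxi1) higher than in Itga8+ MSCs, 11 lower and 1 (Mxi1) higher than in Itga8- BLCs, and 7 lower and none higher than in Sca-1+ MSCs. The median log2 fold changes of the list, other population minus CD51+CD140a+ MSCs, were 1.15, 0.62 and 0.58, beside 0.18, 0.091 and -0.0025 over all genes tested, of which 21.2%, 20.4% and 11.2% were called lower in CD51+CD140a+ MSCs. The collagen-modifying enzyme gene Plod2 stood at 50.9 ± 2.66 CPM in CD51+CD140a+ MSCs and, elsewhere, at 332 ± 62.3 in Sca-1+ MSCs, 603 ± 242 in Itga8+ MSCs and 889 ± 205 in Itga8- BLCs, and the glycolytic gene Pgk1 at 26.8 ± 3.30 against 124 ± 35.6 in Itga8+ MSCs. Among 9 genes for the factors and their regulators, 3 differed among the populations, where 47.5% of all genes did. Epas1 (HIF-2 alpha) was 198 ± 21.9 CPM in CD51+CD140a+ MSCs against at most 8.58 ± 1.63 elsewhere, at least 4.52 ± 0.47 higher on the log2 scale (edgeR adjusted p = 3.81e-05 against Sca-1+ MSCs), and Hif3a was called higher there too. Hif1a was not called in any comparison. The part of these factors in the levels of Vegfa and Angptl4 was not tested. The summed cartilage markers were, like many of the 23 genes, lower in CD51+CD140a+ MSCs (561 to 1434 CPM) than elsewhere (9212 CPM or more). Their part was not tested either. Egln3, an oxygen-sensing hydroxylase gene, was highest in Sca-1+ MSCs (23.3 ± 7.85 CPM).

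**Figure D4:**
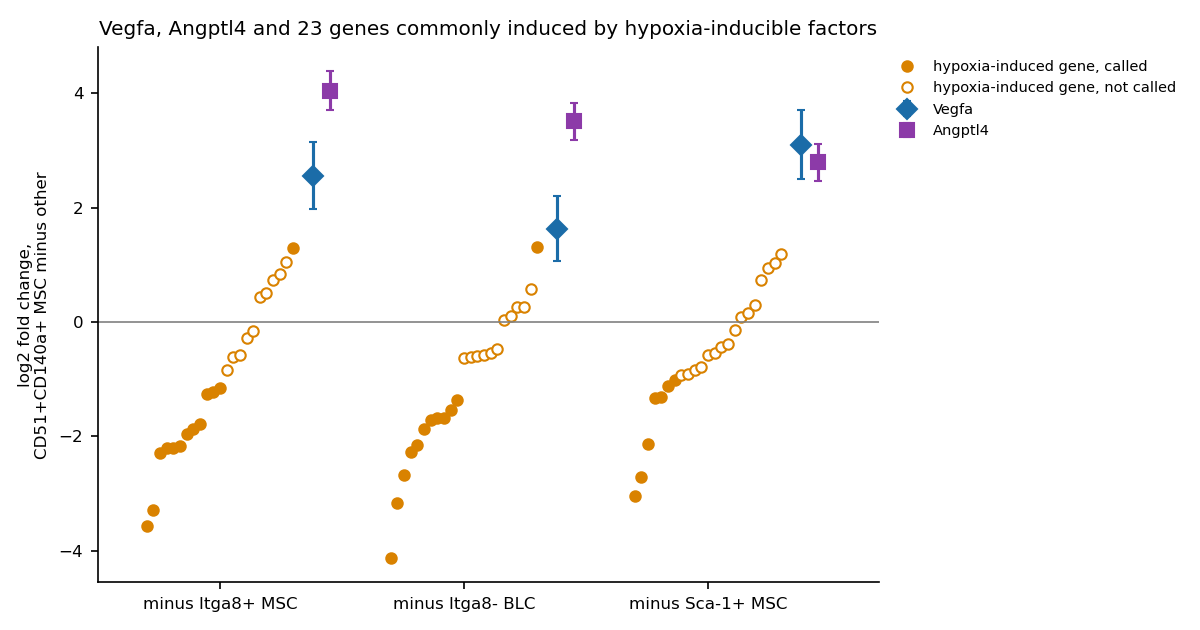
Log2 fold change, CD51+CD140a+ MSCs minus each other population, of 23 genes commonly induced by hypoxia-inducible factors (circles in order of value, filled where called) beside Vegfa (diamonds) and Angptl4 (squares, bars SE). Vegfa and Angptl4 lie above 0 in all 3 comparisons, while 12, 11 and 7 of the 23 genes are called below 0.

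Angptl4 is also a known target of the PPAR factors. Of 12 PPAR genes and targets, 4 were called higher in CD51+CD140a+ than in Itga8+ MSCs and none lower, 4 higher and 1 lower than in Itga8- BLCs, and 5 higher and 1 lower than in Sca-1+ MSCs. Of all genes tested, 14.3%, 14.9% and 9.30% were called higher in CD51+CD140a+ MSCs in these comparisons and 21.2%, 20.4% and 11.2% lower. Pparg itself was 187 ± 20.5 CPM in CD51+CD140a+ MSCs against at most 4.58 ± 3.12 elsewhere. The target Pdk4 was highest there too, at 86.8 ± 22.1 CPM, although it was not called against Itga8- BLCs (52.6 ± 20.8 CPM), whereas Plin2, Fabp4, Cd36 and Acadl were not called against any of the 3 populations. Among 21 other secreted angiogenic ligands, calls went in both directions. Against Itga8+ MSCs, Itga8- BLCs and Sca-1+ MSCs in turn, 10, 8 and 5 were called lower in CD51+CD140a+ MSCs and 5, 4 and 5 higher. Of all genes, 21.2%, 20.4% and 11.2% were called lower there and 14.3%, 14.9% and 9.30% higher. Esm1 and Cxcl12 lay with the members of the CD51+CD140a+ pattern (1284 ± 152 and 43476 ± 7921 CPM there), and Sema3e with those of the Sca-1+ pattern (268 ± 49.1 CPM against at most 8.58 ± 2.51). Among 17 tested inhibitors of angiogenesis, 7, 6 and 9 were called lower in CD51+CD140a+ MSCs in the same 3 comparisons and 3, 2 and 1 higher. The same shares of all genes stand beside these counts. The chondromodulin gene Cnmd was 8022 ± 4003 CPM in Itga8+ MSCs and 4669 ± 1485 in Itga8- BLCs, against 91.1 ± 38.1 in Sca-1+ and 52.9 ± 20.04 in CD51+CD140a+ MSCs. The summed cartilage markers were also higher in the first 2 populations (14572 CPM or more) than in the others (at most 9838), and their part was not tested.

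For the 8 members with a mean of at least 10 CPM in some population, the genes with the most similar levels over the 12 libraries were taken from the 10562 genes that reached the same level (Pearson r of log2(CPM + 1)). The points share libraries and fall into 4 populations, so r describes the pattern of populations. Vegfa was closest to Foxc1 (r = 0.978), a transcription factor gene of marrow stroma and bone, then Igf2bp2 and Itpk1. Angpt2 was closest to Ibsp (0.991), which encodes bone sialoprotein and is one of the 9 osteoblast markers, followed by Cd1d1 and Lifr. Among the genes closest to Vegfc were Gas6 (0.993) and Tmem255b. Angpt4 was closest to Gm17473 (0.991), Adcyap1r1 and Serpina3c, and Angptl4 to Il7 (0.982), Gm17473 and Ptchd4. The first exons of Gm17473 lie opposite the first exon of Angpt1. Angptl7 was closest to Ccn3 (0.982), Medag and Tppp3. Angptl1 was closest to Gm37802 (0.993), the gene that lies opposite its exons, and then to Ephx1 (0.971) and Clec16a. Angptl2 had the weakest best match, Pde3b (0.960), before 1810008B01Rik and Prkd2.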

How the data were processed

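The files hold raw counts per gene for 49585 Ensembl identifiers in 12 libraries, as deposited by the authors. The libraries were made from sorted cells with SMART-Seq v4 and Nextera XT chemistry. The study's methods name TopHat with Bowtie2, the mm10 genome and the iDEP web tool, whereas the submitters' processing notes list FastQC 0.11.7, Trimmomatic 0.38, HISAT2 2.1.0, SAMtools 1.9, featureCounts 1.6.3 and mm10. Which aligner made the counts cannot be settled from these, and the annotation release and the strand setting of the counting are not given in the sources used here. Both bear on genes that overlap others and, through how reads shared by several genes are treated, on close copies. Of the 50-base words of the members' transcripts, 86.7% were unique to the gene for Angptl1 and 99.8% or more for the others.

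Identifiers were matched to symbols and positions with GENCODE M21 (GRCm38), which lacked 259 of them. Counts were scaled with TMM and tested in edgeR 4.0.16 (R 4.3.3) by the quasi-likelihood test in 1 fit of all 12 libraries, over genes that reached 0.5 CPM in 1 or more libraries, with Benjamini-Hochberg adjustment over all of them. A gene was called at an FDR under 0.1 and a change of more than 2-fold. Replicates were grouped by the sample labels. TPM used the union of a gene's exons. The alternatives were DESeq2 1.42.0, limma-trend (limma 3.58.1, prior count 1), RLE size factors, library totals alone, other filters on low counts, a fit of only the populations compared, the replicate number as a block, an FDR of 0.05, the longest transcript as gene length and each library left out in turn. Leaving out Itga8+ MSC replicate 2 and Itga8- BLC replicate 3 together was added after seeing the data. The fitting script was tested on simulated data. Tables and plots were made with Python 3.11.15, pandas 2.3.3 and matplotlib 3.10.9, and exact permutation tests with scipy 1.17.1. The floor of 3 counts covers counting error only.

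The members, the lists of markers and of pathway genes, and the tests were chosen with earlier results of these data known. All members were named. From each pathway list, up to 3 called genes per comparison with the largest change were named, among those with a mean of at least 10 CPM in the higher population, and genes named beside these, such as Mxi1, Adamts1, Hif1a and Hif3a, were chosen after their values were seen. Lists of markers not otherwise described summed to 14.8 to 43.6 CPM (5 megakaryocyte genes) and 1.69 to 39.9 CPM (5 skeletal muscle genes) over the libraries. Some genes that the naming rule picks are not reported here.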

Additional observations from a re-analysis of the deposited data

How the results depend on the processing

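The number of members called in each comparison stayed within 1.5 times its value under all the alternatives run, DESeq2, limma-trend, both other scalings and both other filters included. Which members were called could change. In the fit of Itga8+ MSCs and Itga8- BLCs alone, the calls of Vegfc and Angptl1 were lost, Angptl7 was gained and Angpt2 was kept. With each library left out in turn, 3 to 4, 7 to 8, 6 to 8, 5 to 7, 7 to 9 and 7 to 10 members were called in the 6 comparisons in the order given above, and 8 to 10 differed among the populations. In the first 3 of them, 2.33% to 4.83%, 12.8% to 31.6% and 27.3% to 43.0% of all genes were called. In the last 3 the shares were 19.0% to 32.2%, 27.8% to 40.3% and 16.1% to 23.8%. Among the populations, 38.9% to 54.9% of all genes differed. Over single members and settings, 1240 results kept direction and side of the thresholds, 56 calls were lost, 11 were gained and 12 small differences changed sign, where the cause was not tested. The changes of sign were in Angptl2 between Itga8+ and Sca-1+ MSCs (log2 fold change -0.175 with limma-trend, 0.479 without Itga8+ MSC replicate 2 and Itga8- BLC replicate 3, and -0.484 to 0.437 with each library left out), in Vegfb between Itga8- BLCs and Sca-1+ MSCs (-0.146 with library totals alone, -0.218 to 0.487 with each library left out) and in Vegfd between Itga8+ MSCs and Itga8- BLCs (-4.083 to 4.172), which rested on 5 reads in each population. Angptl7 against CD51+CD140a+ MSCs, with its few reads there, moved to 8.96, 6.04 and 13.45 with limma-trend for Itga8+ MSCs, Itga8- BLCs and Sca-1+ MSCs. Over all genes, Itga8+ MSCs against Itga8- BLCs gave 712 calls, 1203 with DESeq2, 276 in the fit of these populations alone, 433 without Itga8- BLC replicate 3 and 464 at an FDR under 0.05. Itga8+ against Sca-1+ MSCs gave 4055 calls over all genes, and 2386 to 2642 without 1 of the Sca-1+ libraries. Scaling by library totals alone moved the all-gene median log2 fold change of Itga8+ MSCs against Itga8- BLCs from 0.084 to 0.34, and in Itga8- BLCs against CD51+CD140a+ MSCs from 0.091 to -0.24.

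Whether the replicate numbers pair the libraries could not be settled, since deviations from a mean of 3 libraries depend heavily on single libraries. Deviations of same-numbered libraries from their population means correlated at -0.736 to 0.342, above 0.1 in 5 of 18 pairs, and 5 of 12 libraries correlated best with their own number. With the replicate number as a block, 3, 7, 8, 5, 9 and 8 members were called in place of 3, 7, 8, 7, 9 and 10, and 9 differed among the populations. Of all genes, 2.32%, 15.4%, 29.2%, 22.4%, 30.9% and 17.4% were called, in place of 3.82%, 21.7%, 35.6%, 26.4%, 35.3% and 20.5%. Among the populations 38.4% differed, in place of 47.5%. The member calls no longer made were Vegfa and Angpt4 between Itga8- BLCs and Sca-1+ MSCs and Vegfd and Angptl2 between Sca-1+ and CD51+CD140a+ MSCs. Angptl7 was then higher in Itga8+ MSCs by 8.79 and in Itga8- BLCs by 5.79, on the log2 scale, than in CD51+CD140a+ MSCs, and the calls over all genes in Itga8+ MSCs against Itga8- BLCs fell to 433. Depth limits Vegfd, Angpt2 and Angptl7 where they had few reads, and there the fitted sizes depend on single libraries.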
